A study of Mus musculus with 27 samples.

Results

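The oxidative phosphorylation genes of the mouse were taken here as the genes whose symbol begins with Ndufa, Ndufb, Ndufc, Ndufs or Ndufv and a digit, with Uqcr, with Cox and a digit from 4 to 8, or with Atp5, together with Sdha, Sdhb, Sdhc and Sdhd. The rule used names only and found 85 of the 20156 genes in the expression tables. Of these, 81 encode nuclear subunits of the 5 complexes, with 35 in complex I, 4 in complex II, 8 in complex III, 19 in complex IV and 15 in complex V. The other 4, Cox4nb, Atp5s, Atp5sl and Cox7a2l, share a name stem but are not subunits. Their RNA levels and the histone marks at their transcription start sites (TSSs) were followed through reprogramming, from mouse embryonic fibroblasts (MEFs) to pre-iPSCs, a partly reprogrammed intermediate, and to induced pluripotent stem cells (iPSCs).

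MEFs came from e13.5 embryos of CBA/CaJ × C57BL/6J fathers and 129Sv/Jae mothers. These cells, and so all 3 cell types, were hemizygous for Oct4-GFP and for a Rosa26 allele. Pre-iPSCs and iPSCs were made from such MEFs with retroviruses for Oct4, Sox2, Klf4 and c-Myc and were grown with LIF on a feeder layer of MEFs, so fibroblast RNA from feeders can be present in both. For RNA-seq, MEFs were grown for no more than 3 passages and the other cells for 6. There were 2 RNA-seq libraries of each cell type, and 2 of each for H3, H3K4me3 and H3K27me3 after micrococcal nuclease (MNase) digestion, called replicates 1 and 2. H3K9me3 had 1 library of each cell type. The study states biological replicates and names a pair of pre-iPSC clones with their iPSCs, but the clone or culture of a given library is not given in the sources used here, so p-values measure the spread between these libraries. MEFs were digested with another amount of MNase and for another time, so in the chromatin data cell type and digestion cannot be told apart.

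Oxidative phosphorylation passes electrons from NADH through complex I, or from succinate through complex II, to complex III, cytochrome c and complex IV, which reduces oxygen. Complexes I, III and IV pump protons out of the mitochondrial matrix, and complex V, the ATP synthase, lets them flow back and makes ATP. Most subunits are encoded in the nucleus and a few in the mitochondrial genome, and several complex IV subunits exist as pairs of a widely used form and a form known from heart and skeletal muscle, lung or testis. Pluripotent cells are known to rely more on glycolysis than fibroblasts do.

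The labels were checked first against markers. Summed FPKM, fragments scaled to transcript length and library size, over 8 fibroblast genes such as Col1a1 was 4431 and 4201 in MEFs and between 95.5 and 299 in the other 4 libraries. Over 8 pluripotency genes the sum was 0.0233 and 0.904 in MEFs, then 632 and 3524 in pre-iPSCs, then 2282 and 2179 in iPSCs, and Nanog was at 0.519 and 0 FPKM in pre-iPSCs and 49.5 and 73.6 in iPSCs. Pou5f1, which encodes the delivered factor Oct4, made up most of the pre-iPSC sum. Tdgf1, not a delivered factor, was at 0 and 0.0833 FPKM in MEFs, then 228 and 333 in pre-iPSCs, then 258 and 488 in iPSCs. In pre-iPSCs Utf1 was at 23.2 and 1.67 FPKM and Dppa5a at 1.70 and 5.01. Nanog, Zfp42, Esrrb and Dppa3 were at most 0.519 FPKM there. The FPKM tables hold no read counts, so the depth behind a level is unknown. Calls of H3K4me3 held between 12007350 and 13146349 reads per library, those of H3K27me3 between 13224775 and 15222040, those of H3K9me3 between 12222861 and 12942154 and those of H3 between 67362868 and 108211816.

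The oxidative phosphorylation genes were among the most abundant transcripts in all 3 cell types. The mean over the 6 libraries was at least 10 FPKM for 78 of the 85 genes, and 46 were among the 500 highest genes of the tables. Together they made up 2.51% and 4.22% of all summed FPKM in the MEF libraries, 3.55% and 3.6% in pre-iPSCs, then 4.13% and 3.87% in iPSCs. The means were 3.36% ± 1.21, 3.57% ± 0.0325 and 4.00% ± 0.184 (SD, n = 2 each). The MEF libraries lay on either side of the other 4, so neither other cell type differed from MEFs beyond the MEF spread. Both iPSC libraries lay above both pre-iPSC libraries. An exact permutation test of 2 against 2 libraries cannot go below a p of 0.33.

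**Figure D1:**
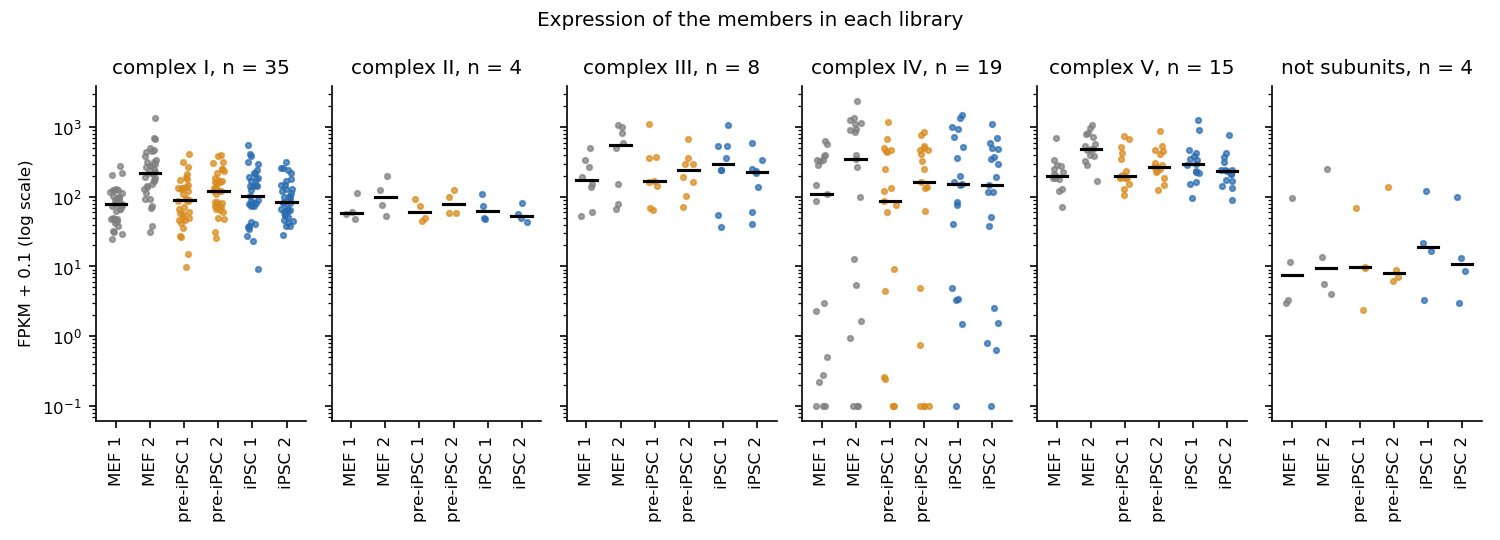
FPKM + 0.1 (log axis) of each oxidative phosphorylation gene in the 6 RNA-seq libraries, with 1 panel per complex and 1 for the 4 genes that are not subunits; each point is a gene and each bar a median. In each of complexes I to V the median of MEF replicate 2 is the highest of the 6, for complex I at 223 FPKM against 77.5 in MEF replicate 1.

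Complex I, the NADH dehydrogenase, had a median of 77.5 and 223 FPKM over its 35 genes in the MEF libraries, 89.9 and 120 in pre-iPSCs, then 102 and 84.5 in iPSCs. Within it the accessory subunit Ndufa3 was the highest by mean, at 277 and 1335 FPKM in MEFs, then 190 and 308 in pre-iPSCs, then 417 and 313 in iPSCs. Ndufs1, the largest iron-sulfur subunit, was the lowest, at 29.2 and 31.6, 26.2 and 25.1, and 23.5 and 28.2 FPKM. Ndufs1 thus kept within a narrow range while MEF replicate 2 stood far above every other library for Ndufa3. In complex II, the succinate dehydrogenase, the medians over 4 genes were 58.6 and 101 FPKM in MEFs, then 61.1 and 78.1 in pre-iPSCs, then 61.5 and 52.7 in iPSCs. Its flavoprotein gene Sdha, the lowest by mean, was at 57.3 and 53.6, 45.3 and 57.9, and 47.7 and 56.0 FPKM. The iron-sulfur subunit gene Sdhb, the highest, was at 112 and 202 FPKM in MEFs, then 72.7 and 124 in pre-iPSCs, then 73.3 and 81.1 in iPSCs. The Sdha ranges overlapped between all 3 cell types, whereas both iPSC libraries were below both MEF libraries for Sdhb.

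Complex III, the cytochrome c reductase, had medians of 173 and 547 FPKM over 8 genes in MEFs, then 167 and 243 in pre-iPSCs, then 300 and 227 in iPSCs. The small subunit gene Uqcr11 was its highest, at 498 and 993 FPKM in MEFs, then 1128 and 681 in pre-iPSCs, then 1077 and 601 in iPSCs. Uqcrfs1, which encodes the Rieske iron-sulfur protein, was its lowest, at 52.2 and 67.1, 64.4 and 72.0, and 36.2 and 41.0 FPKM. For Uqcrfs1 both iPSC libraries lay below the other 4, with a fall of 0.81 on the log2 scale from pre-iPSCs to iPSCs that did not pass the limma test (SE 0.34, adjusted p = 0.224). Complex IV, the cytochrome c oxidase, had medians of 109 and 350 FPKM over 19 genes in MEFs, then 86.1 and 161 in pre-iPSCs, then 150 and 148 in iPSCs. Complex V had the medians 200 and 481 FPKM over 15 genes, then 198 and 272, and 293 and 231. Its catalytic subunit gene Atp5b was the highest, at 701 and 1063 FPKM in MEFs, then 740 and 879 in pre-iPSCs, then 1274 and 775 in iPSCs, with all 3 ranges overlapping. Atp5f1, which encodes subunit b of the peripheral stalk, was the lowest of complex V, at 127 and 168, 105 and 124, and 95.2 and 89.98 FPKM. Its ranges did not overlap and fell from MEFs to pre-iPSCs to iPSCs, but the fitted fall from MEFs to iPSCs of 0.66 on the log2 scale (SE 0.38) did not pass the limma test, with an adjusted p of 0.239.

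The largest difference among these genes was between the MEF replicates. Replicate 2 was higher than replicate 1 for 80 of the 84 genes that entered the test and at least 2-fold higher for 60, with a median difference of 1.45 on the log2(FPKM + 1) scale. Over all 12401 genes tested, 44.8% were higher in replicate 2 and 11.4% at least 2-fold higher, with a median of -0.05. The pre-iPSC replicates differed less, with a median of 0.29, against -0.14 over all genes. Of these genes 15 were at least 2-fold higher in replicate 2, against 5.20% of all genes. Between the iPSC replicates the median was -0.40, against -0.02 over all genes. In replicate 2, 11 of these genes were at least 2-fold lower and 4 at least 2-fold higher, against 3.21% of all genes higher. An example is Cox6a1, the widely used form of a complex IV subunit, at 643 and 2358 FPKM in MEFs, then 1199 and 766 in pre-iPSCs, then 1494 and 710 in iPSCs.

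These genes have short transcripts, with a median of 725 nt against 2785 nt over the genes tested, and the MEF difference went with transcript length. Across 12305 genes with a length, Spearman's rho between length and the replicate difference was -0.56 in MEFs, -0.27 in pre-iPSCs, then 0.28 in iPSCs. Those points share their libraries, genes are not independent replicates, and the values are a description. Of the other genes, the 916 with transcripts under 1000 nt had a median MEF difference of 1.02 and the 5568 with transcripts of 3000 nt or more one of -0.46. The 56 oxidative phosphorylation genes under 1000 nt had a median of 1.62 and the 28 longer ones 0.64. Short genes outside the pathway were thus also higher in MEF replicate 2. Many of these genes also have processed pseudogenes in the mouse genome, and the study kept only reads with a unique place in the genome, so levels of genes with near-identical copies are uncertain.

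**Figure D2:**
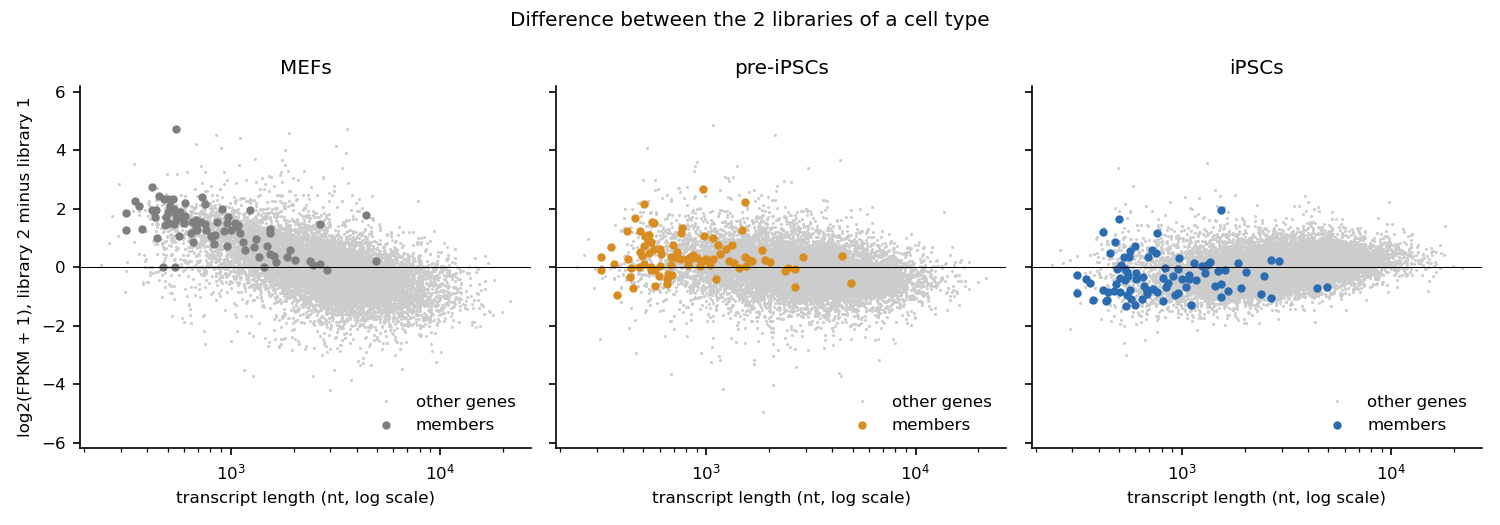
Difference between replicates (log2(FPKM + 1), replicate 2 minus replicate 1) against transcript length (nt, log axis) in MEFs, pre-iPSCs and iPSCs; small pale points are other genes and large points the 84 oxidative phosphorylation genes tested. In MEFs the cloud tilts down with length (Spearman's rho -0.56) and the large points lie above 0 for 80 of 84 genes.

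Because each table holds 1 library of every cell type and was computed on its own, changes were first taken within a table. From MEFs to iPSCs the median change was 0.67 on the log2 scale in the first table, with 63 of 84 genes higher, and -1.07 in the second, with 75 of 84 lower. In all, 56 genes had opposite signs in the tables, against 29.8% of all genes tested. From MEFs to pre-iPSCs the medians were 0.08 and -0.85 with 38 genes of opposite sign, and from pre-iPSCs to iPSCs they were 0.44 and -0.24 with 50. The shares over all genes were 26.7% and 33.2%. The median over all genes stayed between -0.14 and -0.03 in every table and comparison. By complex, the changes from MEFs to iPSCs were 0.67 and -1.14 for complex I, -0.11 and -1.07 for complex II, 0.54 and -0.91 for complex III, 1.23 and -0.85 for complex IV and 0.51 and -1.2 for complex V. The direction of change of the pathway between MEFs and the reprogrammed cells therefore depended on the table, in every complex other than complex II.

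**Figure D3:**
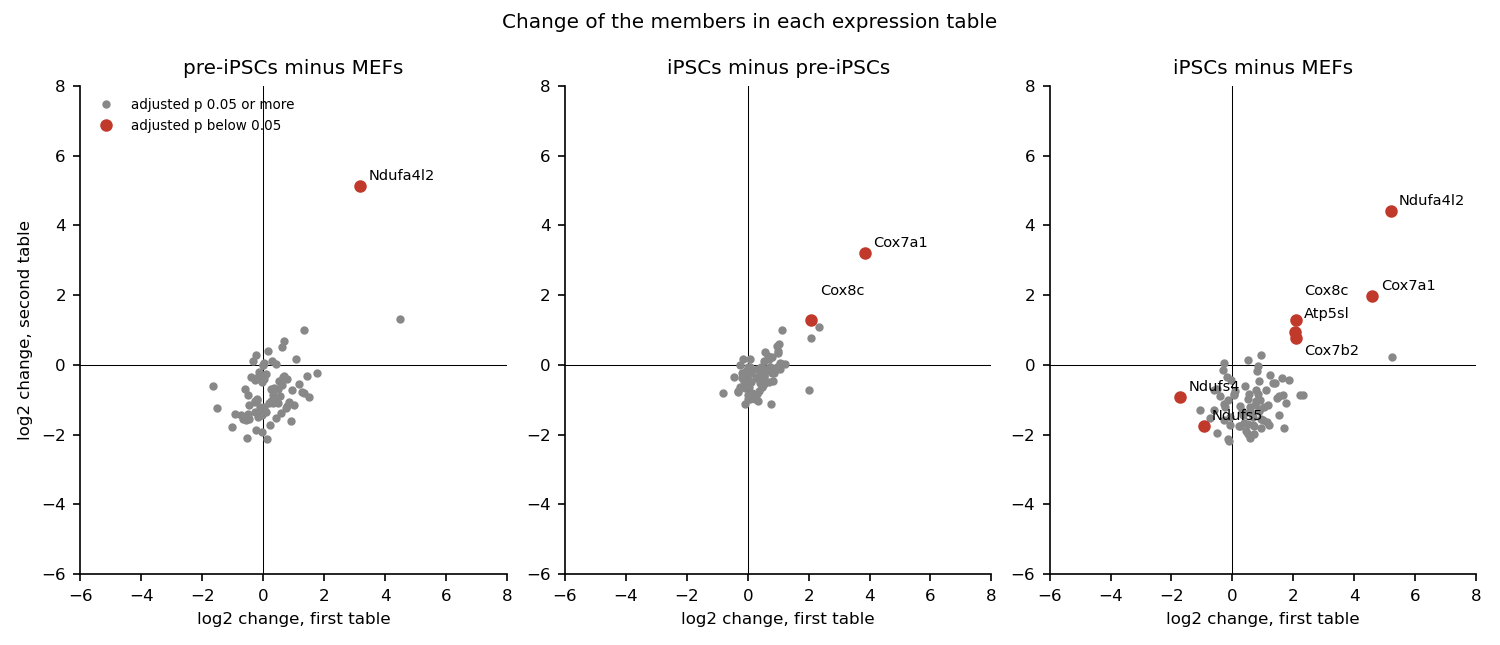
Change of each oxidative phosphorylation gene (log2 of FPKM + 1) in the first table (x axis) and the second (y axis) for the 3 comparisons; red points passed the limma test at an adjusted p below 0.05. From MEFs to iPSCs most points lie to the right of 0 and below 0, and the 7 red points are those with the same sign in both tables that passed the test.

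Few genes of the pathway passed a test, run across all genes, of the change that both tables share. With limma on log2(FPKM + 1), with the table as a term, 1 gene was called higher and none lower in pre-iPSCs against MEFs at an adjusted p below 0.05 (Benjamini-Hochberg), against 7.39% and 9.0% of all genes tested. From pre-iPSCs to iPSCs 2 were called higher and none lower, against 3.91% and 4.71%. In iPSCs against MEFs 5 were called higher and 2 lower, against 10.4% and 15.6%, and 2 of the 5, Cox8c and Cox7b2, passed the filter on low values through iPSCs alone. Ndufa4l2, the call in pre-iPSCs and another of the 5, passed it through its pre-iPSC and iPSC levels. At an unadjusted p below 0.05 there were 9, 6 and 12 genes of the pathway, beside 3892, 2684 and 4871 of the 12401 genes tested. The fitted medians over the pathway were -0.26, 0.03 and -0.25, beside -0.04, -0.09 and -0.14 over all genes. Quantile normalisation turned these medians to 0.21, 0.13 and 0.35, beside 0.00, 0.01 and 0.03 over all genes, and gave 10 higher and 0 lower calls in iPSCs against MEFs, where 12.8% and 13.9% of all genes were called. Without MEF replicate 1 the calls in pre-iPSCs against MEFs were 1 higher, against 9.66% of all genes, and 22 lower, where 1671 of the 12401 genes tested were lower, and in iPSCs against MEFs 3 higher and 17 lower, against 11.3% and 18.4%. Without MEF replicate 2 they were 6 higher and 1 lower, against 8.7% and 10.3%, and 13 higher and 1 lower, against 10.9% and 16.5%. Which direction prevailed among the calls thus turned with the MEF library used. The fitted medians over the pathway also turned with the iPSC library. Without iPSC replicate 1 and replicate 2 they were -0.87 and 0.39 against MEFs and -0.52 and 0.74 against pre-iPSCs. Without iPSC replicate 1 no gene of the pathway was called in iPSCs against either other cell type, with 3 and 13 at an unadjusted p below 0.05, and over all genes 0.556% were called higher and 0.177% lower against pre-iPSCs and 2.9% and 2.38% against MEFs. With the transcript-length trend taken out of each library, 3 were called higher and 1 lower in pre-iPSCs against MEFs (10.6% and 11.2% of all genes), 3 higher and none lower from there to iPSCs (5.17% and 5.8%), and 6 higher and 2 lower from MEFs to iPSCs (16.2% and 16.5%). The fitted medians over the pathway were then -0.10, 0.08 and -0.08.

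Both MEF libraries lay below both pre-iPSC libraries for 4 genes, Ndufa4l2, Ndufv1, Atp5a1 and Atp5sl, and above them for 5, Ndufs1, Cox5a, Cox6a2, Atp5f1 and Cox4nb, where 24.6% and 29.3% of all genes were so separated. From pre-iPSCs to iPSCs 13 genes were separated upward and 8 downward, against 20.9% and 31.1%. From MEFs to iPSCs the counts were 8 and 10, against 26.7% and 36.2%. Among the 13 genes higher in iPSCs than in pre-iPSCs, 10 belong to complex IV, which had 18 genes in the test. The 10 include Cox4i1, Cox5a, Cox5b, Cox7c and Ndufa4, and 5 less used forms. Of these forms, Cox8c and Cox7b2 were listed at 0 in both pre-iPSC libraries and passed the filter on low values through iPSCs alone. Their separation therefore lends no support of its own. Cox6a2 was low, at 0.162 and 0 FPKM in pre-iPSCs, then 1.38 and 0.525 in iPSCs. Whether complex IV differs here from the other complexes was not tested.

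The genes that passed the test in a comparison were Ndufa4l2, Cox7a1, Cox8c, Cox7b2, Ndufs4, Ndufs5 and Atp5sl. Of these, Ndufa4l2, Cox8c and Cox7b2 passed the filter on low values through the cells where they were high. Ndufa4l2 (NM_001098789, chr10:126951995-126954210 in mm9) is a paralog of Ndufa4, a subunit named for complex I but now placed in complex IV, and is known as a gene induced at low oxygen. Its level was 0.122 and 0.842 FPKM in MEFs, then 9.14 and 63.4 in pre-iPSCs, then 40.2 and 38.3 in iPSCs. All 4 reprogrammed libraries stood above both MEF libraries, and the pre-iPSC libraries were far apart. It was higher by 4.15 on the log2 scale in pre-iPSCs (SE 0.62, limma, adjusted p = 0.00576) and by 4.81 in iPSCs (SE 0.62, adjusted p = 0.00264), the latter with an adjusted p of 0.0617 without iPSC replicate 1. Ndufa4l2 passed the filter on low values through its pre-iPSC and iPSC levels, so these tests lend it no support of their own. With no filter its limma adjusted p was 0.156 in pre-iPSCs and 0.0919 in iPSCs. Ndufa4 itself was at 282 and 920 FPKM in MEFs, then 251 and 326 in pre-iPSCs, then 366 and 353 in iPSCs and did not pass the test in any comparison. Of the FPKM of the pair, Ndufa4l2 held 0.0432% and 0.0914% in MEFs, then 3.51% and 16.3% in pre-iPSCs, then 9.88% and 9.79% in iPSCs.

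Cox7a1 (NM_009944, chr7:30969190-30971049 in mm9), the heart and skeletal muscle form of subunit VIIa, rose at the last step. It was at 2.18 and 12.6 FPKM in MEFs, then 4.41 and 4.77 in pre-iPSCs, then 76.2 and 51.9 in iPSCs. The iPSC libraries were above the other 4, and the pre-iPSC libraries lay within the MEF range. The rise was 3.52 on the log2 scale from pre-iPSCs (SE 0.61, limma, adjusted p = 0.0152), 17.3-fold and 10.9-fold in FPKM in the tables, and 3.28 from MEFs (SE 0.61, adjusted p = 0.00898). The widely used form, Cox7a2, was at 87.5 and 394 FPKM in MEFs, then 61.2 and 140 in pre-iPSCs, then 83.6 and 119 in iPSCs, with overlapping ranges. Cox7a1 held 2.43% and 3.09% of the pair in MEFs, then 6.71% and 3.29% in pre-iPSCs, then 47.7% and 30.4% in iPSCs. With no filter on low values the limma adjusted p of Cox7a1 was 0.214 from pre-iPSCs and 0.143 from MEFs. Without iPSC replicate 1 the rise from pre-iPSCs had an adjusted p of 0.196 with limma and without iPSC replicate 2 of 0.0968, and that from MEFs had 0.122 without iPSC replicate 1. The summed FPKM of 10 muscle genes was 165 and 301 in MEFs, then 4.95 and 6.04 in pre-iPSCs, then 4.26 and 9.65 in iPSCs, with Acta1 at 155 and 285 FPKM in MEFs. Of the 10, Myh3, Myh6 and Myod1 were above both pre-iPSC libraries in both iPSC libraries, at no more than 0.480 FPKM. Of 3 brown fat markers, Cidea and Ucp1 were likewise higher in iPSCs, at no more than 1.93 FPKM. The part of such cells in the Cox7a1 levels was not tested.

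Some complex IV forms known from the testis appeared in iPSCs at low levels. Cox8c, the testis form of subunit VIII, was listed at 0 in all 4 libraries of MEFs and pre-iPSCs and was at 3.25 and 1.43 FPKM in iPSCs (log2 change from MEFs 1.69, SE 0.32, limma, adjusted p = 0.00965). From pre-iPSCs its adjusted p was 0.0208, and without iPSC replicate 1 and replicate 2 it was 0.107 and 0.063. Cox7b2, the testis form of subunit VIIb, was likewise listed at 0 in those 4 libraries and was at 3.25 and 0.696 FPKM in iPSCs (1.43, SE 0.39, limma, adjusted p = 0.0337 from MEFs and 0.0700 from pre-iPSCs). Without iPSC replicate 1 the limma adjusted p from MEFs was 0.0594 for Cox8c and 0.116 for Cox7b2, and without MEF replicate 1 that of Cox7b2 was 0.0591. From pre-iPSCs the change of Cox7b2 was 1.43 without MEF replicate 1 and also without MEF replicate 2, as no MEF level enters it. Cox8c and Cox7b2 passed the filter on low values through their iPSC levels alone, so these tests lend them no support of their own. With no filter the limma adjusted p from MEFs was 0.0854 for Cox8c and 0.194 for Cox7b2 and that of Cox8c from pre-iPSCs was 0.14, and under quantile normalisation that of Cox7b2 from MEFs was 0.0717. The widely used forms were far higher, with Cox8a at 717 and 371 FPKM in iPSCs and the X-linked Cox7b at 196 and 148, so that Cox8c held 0.452% and 0.385% of its pair and Cox7b2 1.63% and 0.469%. The testis cytochrome c gene Cyct, an electron carrier outside the name rule, was listed at 0 in the same 4 libraries and was at 51.4 and 38.4 FPKM in iPSCs (5.51 from MEFs, SE 0.35, limma, adjusted p = 0.000534). Cyct too passed the filter on low values through iPSCs alone, so its test lends it no support of its own. Its widely used partner Cycs was at 45.3 and 28.9 FPKM in iPSCs, so Cyct was not low beside it. The 3 other testis germ cell markers, Tnp1, Prm1 and Odf1, were listed at 0 in both iPSC libraries, and the summed FPKM of all 4 markers in MEFs and pre-iPSCs was at most 0.455.

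Cox6b2, the testis form of subunit VIb, was not confined to iPSCs. It was at 2.88 and 101 FPKM in MEFs, then 86.1 and 254 in pre-iPSCs, then 146.2 and 117 in iPSCs. MEF replicate 1 was far below the other 5 libraries, whereas MEF replicate 2 lay between the pre-iPSC libraries. The fitted changes of 2.90 in pre-iPSCs, then 2.73 in iPSCs against MEFs (SE 1.00 each) did not pass the limma test (adjusted p = 0.0946 and 0.0865). With the transcript-length trend taken out of each library they were 3.11 and 2.95 with limma adjusted p of 0.0259 and 0.0226. Without MEF replicate 2 they were 4.95 and 4.78, a fit that rests on MEF replicate 1 alone and so holds no spread between MEF libraries. Cox6b2 held 0.746% and 8.43% of its pair with Cox6b1 in MEFs, then 15.3% and 33.2% in pre-iPSCs, then 21.8% and 28.6% in iPSCs. Cox6b1, the widely used form, was at 384 and 1095, 476 and 509, and 524 and 292 FPKM.

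Other alternative forms stayed low. Cox4i2, the form known from lung and from low oxygen, was at 0.176 and 5.24 FPKM in MEFs, then 0.142 and 0.633 in pre-iPSCs, then 4.83 and 2.45 in iPSCs. Both iPSC libraries lay above both pre-iPSC libraries but within the MEF range, and the change from pre-iPSCs of 1.71 on the log2 scale did not pass the limma test (SE 0.67, adjusted p = 0.191). Without MEF replicate 1, and likewise without MEF replicate 2, the same change was 1.71, as no MEF level enters it. The spread in its test is shared with the MEF libraries, which lay far apart. Its partner Cox4i1 was at 341 and 948, 452 and 473, and 942 and 493 FPKM, and Cox4i2 never held over 0.549% of the pair. Cox6a2, the heart and muscle form of subunit VIa, was at most 1.54 FPKM, and Cox8b, the heart and muscle form of subunit VIII, was listed at 0 in all 6 libraries. The 3 genes for subunit c of ATP synthase, Atp5g1, Atp5g2 and Atp5g3, encode the same mature protein and were all abundant. Atp5g2 held 45.3% and 38.3% of their FPKM in MEFs, then 64.9% and 54.8% in pre-iPSCs, then 64.1% and 53.1% in iPSCs, and its MEF shares lay below the other 4. Atp5g3 held 32.9% and 35.7%, then 17.5% and 27.5%, then 10.9% and 29.0%, and its MEF shares lay above the other 4. None of the 3 passed the limma test for its level in any comparison with all libraries in and the values as deposited. Under quantile normalisation Atp5g2 was called higher in iPSCs than in MEFs (1.36, limma, adjusted p = 0.0385). Without MEF replicate 1 the fitted change of Atp5g1 in pre-iPSCs against MEFs was -1.62 on the log2 scale. Without MEF replicate 2 that of Atp5g2 in iPSCs against MEFs was a rise of 1.73.

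**Figure D4:**
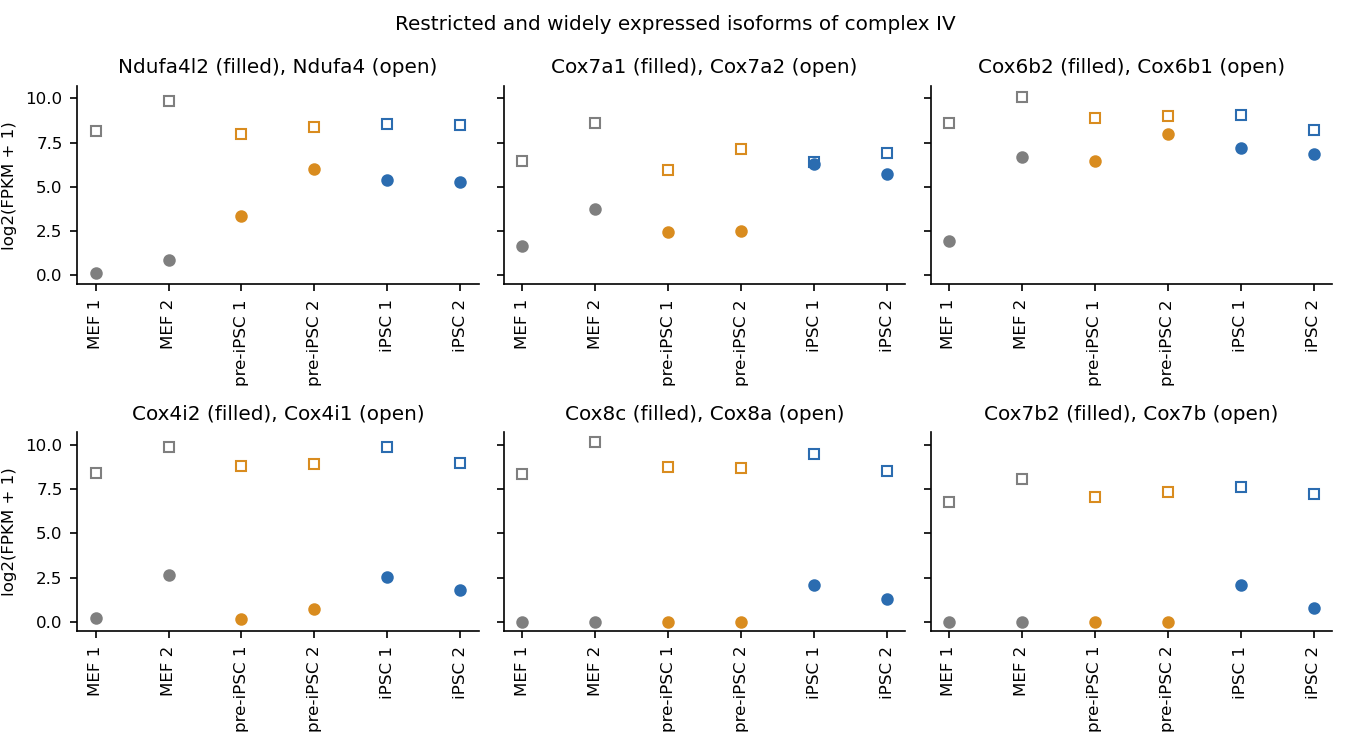
Level, log2(FPKM + 1), of 6 less used forms (filled circles) and of their widely used partners (open squares) in the 2 libraries each of MEFs (grey), pre-iPSCs (orange) and iPSCs (blue). Cox7a1 comes near Cox7a2 in iPSCs, at 76.2 and 51.9 against 83.6 and 119 FPKM, Ndufa4l2 is higher in all 4 reprogrammed libraries than in MEFs, and Cox8c and Cox7b2 leave 0 only in iPSCs.

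The promoters of the 3 alternative forms that passed the test at least once with the largest changes are shown beside those of their widely used partners, to let the sequences be compared. Each runs from 250 bases before the TSS to 50 after it, read 5′ to 3′ on the gene's strand from mm9. They lie at chr7:30968940-30969239 on the plus strand (Cox7a1), chr9:79607611-79607910 on the minus strand (Cox7a2), chr10:126951745-126952044 on the plus strand (Ndufa4l2), chr6:11857397-11857696 on the minus strand (Ndufa4), chr12:104137266-104137565 on the plus strand (Cox8c) and chr19:7292057-7292356 on the minus strand (Cox8a). Capitals mark the letters of 4 motifs known from genes of respiration, on either strand: GCGCATGC for NRF1, CCGGAAG for the ETS factors that include GABP, AAGATGG for YY1 and AAGGTCA for the estrogen-related receptors (ERRs). The YY1 and ETS letters can overlap by AAG. The promoter of Atp5l, a subunit of ATP synthase, at chr9:44728776-44729075 on the minus strand, is shown as one that holds NRF1, ETS and ERR letters together.
Cox7a1: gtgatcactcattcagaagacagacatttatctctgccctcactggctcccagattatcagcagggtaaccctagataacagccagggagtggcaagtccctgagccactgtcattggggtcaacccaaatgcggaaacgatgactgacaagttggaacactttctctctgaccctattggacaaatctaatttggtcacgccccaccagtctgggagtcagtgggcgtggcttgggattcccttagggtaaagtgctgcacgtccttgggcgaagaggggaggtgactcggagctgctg
Cox7a2: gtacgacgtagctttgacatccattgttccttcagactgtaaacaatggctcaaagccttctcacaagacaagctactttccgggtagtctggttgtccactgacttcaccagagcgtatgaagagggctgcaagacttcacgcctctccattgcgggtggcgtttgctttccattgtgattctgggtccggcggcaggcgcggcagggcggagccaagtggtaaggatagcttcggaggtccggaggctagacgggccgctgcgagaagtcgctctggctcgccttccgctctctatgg
Ndufa4l2: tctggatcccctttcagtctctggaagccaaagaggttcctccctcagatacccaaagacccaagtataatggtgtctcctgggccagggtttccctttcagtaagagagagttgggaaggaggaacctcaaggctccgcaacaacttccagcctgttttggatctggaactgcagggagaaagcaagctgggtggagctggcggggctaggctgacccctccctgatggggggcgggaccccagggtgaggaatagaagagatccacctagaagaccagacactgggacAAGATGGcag
Ndufa4: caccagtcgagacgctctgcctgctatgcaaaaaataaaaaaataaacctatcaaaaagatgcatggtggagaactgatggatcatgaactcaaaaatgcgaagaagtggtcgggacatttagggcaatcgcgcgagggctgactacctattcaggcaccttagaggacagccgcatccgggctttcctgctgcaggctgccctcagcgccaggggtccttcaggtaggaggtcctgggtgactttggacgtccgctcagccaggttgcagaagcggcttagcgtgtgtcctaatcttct
Cox8c: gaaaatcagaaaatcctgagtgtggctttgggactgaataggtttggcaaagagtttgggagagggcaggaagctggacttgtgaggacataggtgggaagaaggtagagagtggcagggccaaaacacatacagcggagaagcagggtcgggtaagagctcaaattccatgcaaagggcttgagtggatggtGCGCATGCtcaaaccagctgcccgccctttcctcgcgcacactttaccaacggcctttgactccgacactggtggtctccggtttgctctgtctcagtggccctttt
Cox8a: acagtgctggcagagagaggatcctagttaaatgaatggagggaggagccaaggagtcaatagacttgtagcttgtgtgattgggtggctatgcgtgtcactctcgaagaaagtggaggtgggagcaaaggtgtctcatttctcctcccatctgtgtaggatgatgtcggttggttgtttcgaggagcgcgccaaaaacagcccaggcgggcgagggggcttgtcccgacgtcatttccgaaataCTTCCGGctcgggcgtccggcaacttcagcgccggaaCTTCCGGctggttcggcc
Atp5l: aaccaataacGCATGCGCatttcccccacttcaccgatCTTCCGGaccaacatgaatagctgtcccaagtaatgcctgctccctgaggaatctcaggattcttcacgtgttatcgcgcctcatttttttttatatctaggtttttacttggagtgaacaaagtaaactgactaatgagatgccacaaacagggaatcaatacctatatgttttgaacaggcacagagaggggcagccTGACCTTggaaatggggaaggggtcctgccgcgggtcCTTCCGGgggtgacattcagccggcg

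Cox7a1, Cox7a2 and Ndufa4 hold none of the 4 motifs in this window, Ndufa4l2 holds the YY1 letters, Cox8c the NRF1 letters and Cox8a the ETS letters at 2 places. Over the 85 promoters of the pathway the NRF1 letters were found in 11 (12.9%), against 3.64% of 20153 promoters of the same length. The YY1 letters were in 13 (15.3%, against 6.72%), the ETS letters in 19 (22.4%, against 12.1%) and the ERR letters in 10 (11.8%, against 3.75%). Among the 5468 other genes whose mean reached 10 FPKM, those shares were 6.2%, 9.16%, 22.6% and 2.54%, so the ETS share of the pathway was close to that of other abundant genes. At least 1 of NRF1, ETS and YY1 was found in 38 of the 85, against 20.6% of all promoters. The CCAAT letters were in 36.5% against 38.1%, the TATAAA letters in 9.41% against 12.7% and the CACGTG letters in 9.41% against 8.06%. The ratio of observed to expected CpG had a median of 0.823 in the pathway and 0.614 over all promoters, at a GC content of 57.0% and 57.3%. A ratio under 0.4 was found in 36.2% of all promoters and in 6 of the pathway, Atp5f1, Cox6a2, Cox7a1, Cox7b, Cox8b and Ndufa4l2. A match of letters is a description and not a site of binding.

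In complex I, 2 accessory subunit genes were called lower in iPSCs than in MEFs. Ndufs5 (NM_001030274) was at 73.7 and 214 FPKM in MEFs, then 51.7 and 80.3 in pre-iPSCs, then 37.9 and 62.8 in iPSCs, and both iPSC libraries lay below both MEF libraries. Ndufs4 (NM_010887), whose loss is known to impair the assembly of complex I, was at 32.2 and 73.5 FPKM in MEFs, then 9.57 and 48.2 in pre-iPSCs, then 9.11 and 38.5 in iPSCs. For Ndufs4 the second iPSC library lay above the first MEF library, and the fall was seen within each table. Ndufs5 fell by 1.35 (SE 0.39, limma, adjusted p = 0.0419) and Ndufs4 by 1.32 on the log2 scale (SE 0.39, adjusted p = 0.0433). Without the table as a term the adjusted p with limma was 0.121 for Ndufs5 and 0.294 for Ndufs4. With the length trend taken out, Ndufs4 had a limma adjusted p of 0.0671 and Ndufs5 one of 0.0267. Under quantile normalisation neither was called. Leaving out a library gave limma adjusted p of up to 0.199 for Ndufs4 and 0.193 for Ndufs5, both without an iPSC library.

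Other falls, some of similar size and some smaller, did not pass the test with all libraries in. Ndufb2, a small membrane subunit of complex I, was at 31.2 and 175 FPKM in MEFs, then 14.8 and 49.96 in pre-iPSCs, then 36.2 and 50.96 in iPSCs (log2 change from MEFs to pre-iPSCs -1.41, SE 0.49, limma, adjusted p = 0.0987). Cox6c, a complex IV subunit, was at 341 and 1254, 119 and 534, and 163 and 510 FPKM (-1.37, SE 0.46, limma, adjusted p = 0.0884 in pre-iPSCs). Ndufa3 had a change of -1.33 in pre-iPSCs (SE 0.67, limma, adjusted p = 0.229) and Ndufb6 one of -1.23 in iPSCs against MEFs (SE 0.44, limma, adjusted p = 0.0807). From pre-iPSCs to iPSCs the falls that came first by size were those of Uqcrfs1, of Atp5d, the delta subunit of ATP synthase (-0.61, limma, adjusted p = 0.665), and of Ndufb8 (-0.55, limma, adjusted p = 0.711). With the length trend taken out, Ndufb2 in pre-iPSCs had a limma adjusted p of 0.0299 and Ndufb6 in iPSCs one of 0.0287. Without MEF replicate 1 the limma adjusted p was 0.00155 for Ndufb2 and 0.0061 for Ndufa3 in pre-iPSCs and 0.0027 for Ndufb6 in iPSCs. In each of these 7 genes replicate 2 of MEFs was the highest or second highest library. Of the X-linked genes, Ndufa1 was at 46.7 and 183 FPKM in MEFs, then 27.6 and 66.4 in pre-iPSCs, then 27.4 and 63.8 in iPSCs. Ndufb11 was at 67.4 and 269, 131 and 162, and 141 and 115 FPKM. The ranges of Ndufa1 and Ndufb11 overlapped between the cell types and neither passed the test, as was the case for Cox7b. Without MEF replicate 1 Ndufa1 was called lower in pre-iPSCs (limma, adjusted p = 0.017) and in iPSCs (0.0121). In bulk RNA, fewer cells of a type and less RNA per cell cannot be told apart.

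Of the 4 genes that share only the name stem, Atp5sl, known for a part in the assembly of complex I, was the one called. Its level was 3.24 and 3.95 FPKM in MEFs, then 9.76 and 8.82 in pre-iPSCs, then 16.7 and 8.49 in iPSCs. Both MEF libraries lay below the other 4, and the rise to iPSCs was 1.5 on the log2 scale (SE 0.41, limma, adjusted p = 0.0344). The call of Atp5sl was lost without iPSC replicate 1 (a rise of 1.03), iPSC replicate 2 (1.98), MEF replicate 1 (1.13) or either pre-iPSC replicate (1.5). With no filter on low values its limma adjusted p was 0.138. Cox4nb, which encodes a subunit of a membrane protein complex of the endoplasmic reticulum, was at 11.5 and 13.6, 9.42 and 6.12, and 21.6 and 13.2 FPKM. Atp5s was at 2.90 and 5.47, 2.28 and 6.93, and 3.19 and 2.86 FPKM, and Cox7a2l, which helps complexes III and IV join, was at 96.7 and 250, 68.2 and 138, and 121 and 99.5 FPKM. The ranges of Atp5s and Cox7a2l overlapped between the cell types, and Cox4nb was lowest in both pre-iPSC libraries without passing the limma test.

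The neighbouring lists of the pathway were all chosen with results of these data known, and their calls in iPSCs against MEFs stand beside 10.4% of all genes called higher and 15.6% lower. Of 6 further subunits and carriers, Cyct alone was called, and it passed the filter on low values through iPSCs alone. Of 29 assembly factors, 2 were called lower in iPSCs against MEFs, Tmem70, needed for ATP synthase assembly (-1.95, SE 0.40, limma, adjusted p = 0.0131), and Cox16, needed for complex IV assembly (-1.46, SE 0.36, limma, adjusted p = 0.0238). Among 11 tested regulators the one call was Esrrb, an ERR and a pluripotency gene, which was at most 0.0335 FPKM in MEFs and pre-iPSCs and was at 52.5 FPKM in both iPSC libraries (5.72 from MEFs, SE 0.35, limma, adjusted p = 0.000412). Esrrb, like Cyct, entered the test through iPSCs alone, so the test lends it no support of its own. None of the 16 genes of the tricarboxylic acid cycle and pyruvate dehydrogenase was called in any comparison. Of 76 mitochondrial ribosome genes 3 were called in iPSCs against MEFs, with Mrps6 lower (-3.06, SE 0.34, limma, adjusted p = 0.00148), Mrpl32 lower and Mrps5 higher. Mrps6 was also the one gene of these lists called in pre-iPSCs against MEFs. Slc25a4, a carrier that exchanges ADP and ATP and is known from heart and muscle, was at 334 and 687 FPKM in MEFs, then 199 and 173 in pre-iPSCs, then 118 and 116 in iPSCs and was called lower in iPSCs (-2.02, SE 0.47, limma, adjusted p = 0.0204). The median difference between the MEF replicates was 0.70 for the mitochondrial ribosome, 0.24 for assembly factors and -0.01 for the tricarboxylic acid cycle, against 1.45 for the oxidative phosphorylation genes.

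H3K4me3, the mark of active promoters, was found at most genes of the pathway. Reads of called nucleosomes within 1000 bp of the TSS were counted and scaled as RPKM, to the length of the window and the unique reads of the library. The mean over the 6 libraries was at least 1 RPKM for 72 of the 85 genes, against 49.2% of all genes. The median over the pathway was 2.24 and 1.56 RPKM in MEFs, then 1.32 and 1.2 in pre-iPSCs, then 1.27 and 1.15 in iPSCs. The MEF libraries were above the other 4, at 1.90 ± 0.477 against 1.26 ± 0.0827 and 1.21 ± 0.0855 RPKM (SD, n = 2 each). That drop was shared by other genes, since the median log2 difference from MEFs to iPSCs in reads scaled to each library was -0.62 in the pathway and -0.54 for the 9837 other genes with at least 1 RPKM. The windows of all genes held 6.03% and 4.82% of the reads in MEFs and between 3.92% and 4.39% in the other libraries. For 26 genes of the pathway the window also held the TSS of another gene, as for the neighbours Cox4i1 and Cox4nb, so their reads cannot be told apart.

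**Figure D5:**
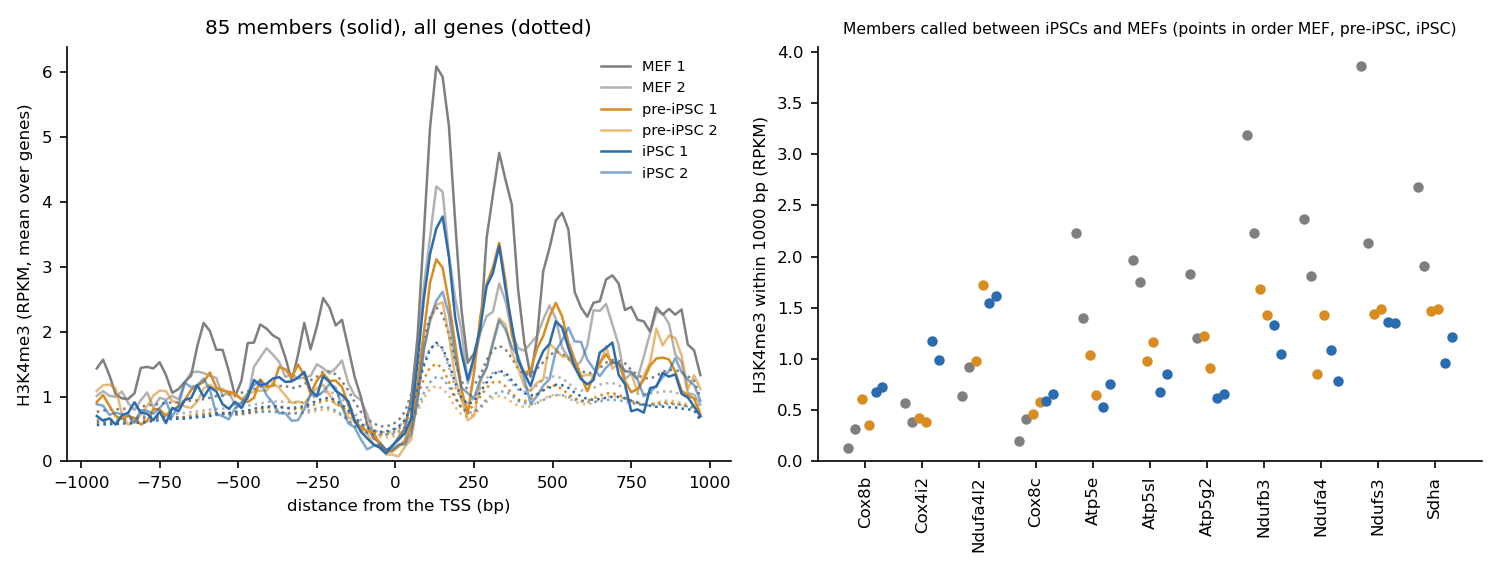
Left, mean H3K4me3 signal (RPKM in bins of 20 bp, drawn as a running mean of 5 bins) against distance from the TSS (bp) over the 85 oxidative phosphorylation genes (solid) and over all genes (dotted), 1 line per library. Right, H3K4me3 within 1000 bp of the TSS (RPKM) of the 11 genes called between iPSCs and MEFs, 1 point per library. The solid lines dip at the TSS and rise above the dotted lines of the same library at the nucleosomes after it, and on the right 4 genes are higher and 7 lower in iPSCs than in MEFs.

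Around the TSS the pathway had a deep gap followed by a strong nucleosome. The highest bin of the pathway's mean lay 110 to 150 bp after the TSS in 5 libraries and 310 bp after it in pre-iPSC replicate 1. From 150 bp before to 50 bp after the TSS the mean H3K4me3 signal was 0.631 and 0.552 RPKM in MEFs, then 0.374 and 0.285 in pre-iPSCs, then 0.375 and 0.292 in iPSCs. Between 51 and 250 bp after it, the place of the first nucleosome of the gene, the signal was 3.74 and 2.74, 1.93 and 1.56, and 2.44 and 1.66 RPKM. The ratio of the nucleosome to the gap was between 4.96 and 6.49 in the 6 libraries for the pathway and between 2.08 and 2.52 for all genes. H3, which marks all nucleosomes, gave a gap in every library too, but pre-iPSC replicate 1 and iPSC replicate 1 stood apart. Their signal at the first nucleosome was 1.34 and 0.835 RPKM over the pathway against 0.152 to 0.227 in the other 4 H3 libraries, and the windows of all genes held 3.13% and 2.31% of their reads against 1.21% to 1.35%.

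Relative to the other windows, H3K4me3 was called higher at 4 less used forms and lower at 7 other genes from MEFs to iPSCs. The test was edgeR's quasi-likelihood test on the counts, which called 9.95% and 4.04% of the 17643 windows tested higher and lower, and 84 genes of the pathway entered. Ndufa4l2 had 19 and 29 reads in MEFs, then 32 and 53 in pre-iPSCs, then 50 and 49 in iPSCs. Its MEF libraries lay below the other 4, and the change was 1.15 in pre-iPSCs (edgeR, adjusted p = 0.0194) and 1.34 in iPSCs (adjusted p = 0.00186). Cox4i2 had 17 and 12 reads in MEFs, then 14 and 12 in pre-iPSCs, then 38 and 30 in iPSCs, the iPSC libraries standing above the other 4 (1.53 from MEFs, edgeR, adjusted p = 0.00258). Cox8b, at 0 FPKM throughout, had 4 and 10, 20 and 11, and 22 and 22 reads (1.93, edgeR, adjusted p = 0.00394). Cox8c had 6 and 13, 15 and 18, and 19 and 20 reads (1.33, edgeR, adjusted p = 0.0365). Cox8b and Cox8c passed the filter on low counts through their pre-iPSC and iPSC reads, so the test lends them no support of its own. The call of Ndufa4l2 in pre-iPSCs was lost without MEF replicate 1 (0.76, edgeR, adjusted p = 0.349) and without pre-iPSC replicate 2 (0.63, edgeR, adjusted p = 0.46). In iPSCs against MEFs the adjusted p with edgeR and without MEF replicate 1 was 0.105 for Ndufa4l2, 0.113 for Cox8b and 0.353 for Cox8c. At Cox7a1, whose RNA rose most of the pathway from pre-iPSCs to iPSCs, there were 17 and 26, 21 and 20, and 20 and 40 reads, and the change from pre-iPSCs of 0.54 did not pass the test (edgeR, adjusted p = 0.699).

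The 7 genes called lower in iPSCs were Atp5e, Atp5sl, Atp5g2, Ndufb3, Ndufa4, Ndufs3 and Sdha. Atp5e, the epsilon subunit of ATP synthase, had 66 and 44 reads in MEFs, then 34 and 20 in pre-iPSCs, then 17 and 23 in iPSCs (-1.14, edgeR, adjusted p = 0.00667). Atp5sl had 58 and 55, 32 and 36, and 22 and 26 reads (-0.92, edgeR, adjusted p = 0.0168), while its RNA was called higher. Sdha, with 79 and 60, 48 and 46, and 31 and 37 reads, was the smallest of the 7 changes at -0.72 (edgeR, adjusted p = 0.0418). Without iPSC replicate 1 the adjusted p with edgeR was 0.206 for Atp5sl and 0.348 for Sdha. In each of these 3 genes both MEF libraries were above all others. The fitted median over the pathway was -0.31, beside -0.03 over all windows, many of which hold little H3K4me3. As given above, the drop in scaled reads was shared by other genes with at least 1 RPKM. In pre-iPSCs against MEFs Ndufa4l2 was the one gene of the pathway called, against 3.17% of windows higher and 0.782% lower. Between pre-iPSCs and iPSCs edgeR called none, against 0.0283% and 0.0227% of windows, with 8 genes of the pathway at an unadjusted p below 0.05, and DESeq2 called none, with 2. Over all windows those counts were 1595 with edgeR and 310 with DESeq2. DESeq2 called none of the pathway in the other 2 comparisons either, with 4 in pre-iPSCs, then 11 in iPSCs against MEFs at an unadjusted p below 0.05, beside 1211 and 2256 over all windows. From MEFs to iPSCs DESeq2 called 0.746% of all windows higher and 0.0339% lower. Without MEF replicate 1 edgeR called 1 gene higher and none lower there (2.64% and 0.677% of all windows), without iPSC replicate 1 it called 4 and none (4.32% and 0.963%) and without iPSC replicate 2 it called 3 and 3 (6.36% and 2.32%).

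H3K27me3, the mark of Polycomb repression, was sparse over the pathway and highest at the alternative forms. The median was between 0.121 and 0.202 RPKM in the 6 libraries, against 0.182 to 0.259 over all genes, and only 13 genes of the pathway had enough reads to be tested. Of these, 7 were alternative forms of complex IV, namely Cox4i2, Cox6a2, Cox6b2, Cox7b2, Cox8b, Cox8c and Ndufa4l2. Cox4i2 had 20 and 38 reads in MEFs, then 25 and 26 in pre-iPSCs, then 27 and 24 in iPSCs, Cox6a2 had 22 and 23, 29 and 14, and 12 and 20, and Cox8c had 18 and 21, 12 and 11, and 18 and 15. Their widely used partners Cox4i1 and Cox8a had between 2 and 13 reads in any library. Ndufa4l2 had 14 and 49 reads in MEFs, then 28 and 17 in pre-iPSCs, then 24 and 15 in iPSCs, so the MEF libraries lay outside the range of the others on both sides. The one call was Ndufs5, with 2 and 3 reads in MEFs, then 12 and 2 in pre-iPSCs, then 10 and 12 in iPSCs (2.07 from MEFs to iPSCs, edgeR, adjusted p = 0.0399), against 7.28% of 10187 windows called higher. Ndufs5 passed the filter on low counts through its pre-iPSC and iPSC reads, so the test lends it no support of its own. DESeq2 gave it no adjusted p at such counts, and with the replicate as a block in edgeR the adjusted p was 0.0557. Leaving out a library ended the call in 5 of 6 cases (edgeR, adjusted p = 0.133 to 0.205), and without MEF replicate 1 the one call was Ndufa4l2, lower in iPSCs (-1.26, edgeR, adjusted p = 0.0139). In the other 2 comparisons edgeR and DESeq2 called none of the 13 genes, with 1 and 0 at an unadjusted p below 0.05 in edgeR and 0 and 0 in DESeq2, and the shares of windows called were 5.04% higher and 3.27% lower in pre-iPSCs against MEFs and 0.687% and 0.137% in iPSCs against pre-iPSCs.

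H3 itself was called at 0 of 19576 windows in each comparison by edgeR, a share of 0.0% in either direction, with 371, 109 and 297 windows, of which 1, 0 and 1 in the pathway, at an unadjusted p below 0.05, and DESeq2 called none, with 192, 40 and 133. Without pre-iPSC replicate 2, which leaves replicate 1 with its high signal near TSSs, edgeR called 8.25% of windows higher and 16.7% lower in pre-iPSCs against MEFs, with 2 genes of the pathway each way, and 9.69% and 0.8% from pre-iPSCs to iPSCs, with none. H3K9me3, the mark of constitutive heterochromatin, had a median over the pathway of 0.164 RPKM in MEFs, then 0.218 in pre-iPSCs, then 0.232 in iPSCs, against 0.197, 0.234 and 0.265 over all genes. It had no replicates and no test was made.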

How the data were processed

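RNA-seq (6 libraries) and MNase ChIP-seq (21 libraries) of mouse cells were used. For RNA-seq the authors aligned reads to mm9 with TopHat2 2.0.4, kept those with a unique place and computed the deposited FPKM with Cufflinks 2.0.2, in separate tables for replicates 1 and 2. For ChIP-seq the authors aligned reads with Bowtie 1.0.1, kept those with a unique place and called nucleosomes, and the deposited values are the read counts of each call, with reads moved by 73 bp. The deposited fuzziness of a call, a signal in bp, was not used. No columns of unmapped samples were present.

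The genes and lists were chosen with earlier results of these data known. Named genes are the alternative forms, the genes that share only a name, the X-linked genes, the highest and lowest of each complex, the 3 largest rises and falls, and all genes called. Genes whose mean reached 0.5 FPKM entered limma 3.58.1 (trend, cell type and table as terms) as log2(FPKM + 1), a scale that understates changes of low genes. Promoter counts within 1000 bp of the TSS entered the quasi-likelihood test of edgeR 4.0.16 after filterByExpr and TMM, with DESeq2 1.42.0 as alternative. Adjusted p-values are Benjamini-Hochberg values over all genes or windows tested, two-sided, called below 0.05. RPKM were scaled to the unique reads of the study. Counts carry counting error beside the replicate spread.

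By the rule that every pair's correlation exceed 0.1, equal replicate numbers did not pair the samples. Pearson's r of replicate differences was 0.35, -0.20 and 0.11 in RNA, -0.04, -0.05 and 0.10 in H3K4me3, 0.00, -0.00 and 0.09 in H3K27me3 and -0.11, -0.08 and 0.66 in H3, for MEFs with pre-iPSCs, MEFs with iPSCs and pre-iPSCs with iPSCs. Tests were checked on simulated data. The removal of the length trend (lowess, span 0.3) was chosen after seeing the data. Scripts ran in R 4.3.3 and in Python 3.11.15 with pandas 2.3.3, numpy 2.4.6 and scipy 1.17.1.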

Additional observations from a re-analysis of the deposited data

How the results depend on the processing

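The counts of oxidative phosphorylation genes called in expression were 1 from MEFs to pre-iPSCs, 2 from there to iPSCs and 7 from MEFs to iPSCs. With no filter on low values, when 20156 genes were tested, they were 0, 0 and 0, with 6, 5 and 12 at an unadjusted p below 0.05, and over all genes 0, then 237 higher and 94 lower, then 500 and 319 were called. Over all genes 4116, 3498 and 5429 were at an unadjusted p below 0.05. Under quantile normalisation the first was 3, beside 921 of all 12401 genes higher and 1055 lower, and with the length trend removed it was 4. The term for the table is a block of replicate number, and without it the counts were 1, 2 and 5. Of all 12401 genes 906, 529 and 1208 were then called higher and 1094, 596 and 1834 lower. When 1 replicate was left out, the counts ranged from 1 to 23, from 0 to 5 and from 0 to 20, and the medians from -1.04 to 0.29, from -0.52 to 0.74 and from -0.88 to 0.43. In promoter H3K4me3 the single call in pre-iPSCs against MEFs became 0 with DESeq2 and 2 with no filter and ranged from 0 to 3 without 1 replicate. The 11 calls in iPSCs against MEFs became 0 with DESeq2 and 5 in windows of 500 bp, where 764 of all 14454 windows were called higher and 156 lower, and ranged from 1 to 11. The single H3K27me3 call became 0 with DESeq2, in windows of 500 bp, with calls of at least 2 reads and with the replicate block, and ranged from 0 to 1, where the 1 without MEF replicate 1 was another gene. In H3, where no gene was called, the count in pre-iPSCs against MEFs ranged from 0 to 4. The cause of these changes was not tested. For promoter H3K4me3 in pre-iPSCs against MEFs, DESeq2 called 30 of all 17698 windows higher and 0 lower. With no filter edgeR called 606 of all 19845 windows higher and 172 lower. The replicate block changed no other count of promoter calls in the pathway by over 1.5 times. Over all windows it took those in iPSCs against pre-iPSCs from 70 higher and 14 lower to 35 and 7 in H3K27me3 and from 5 and 4 to 0 and 0 in H3K4me3. The lone library left by leaving out a replicate was taken to vary like the others. For the genes named in the text, 2419 values kept their sign and their side of the threshold, 81 lost their call and 51 gained one. In 246, called neither with all settings as described nor under the alternative, the sign turned or one value was 0. With 2 libraries per cell type and unknown RNA depth, a gene that was not called is not shown to be alike between cell types.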
